A study of Homo sapiens with 6 samples.

Results

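Broad shared sites are accessible regions that appeared as 1 wide peak in shHMGA1 cells and as 1 wide peak in control cells, so that the same region could be followed under both conditions. They were chosen by their peak widths and overlap: on chromosomes 1 to 22, 1 shHMGA1 peak overlapped exactly 1 control peak and the reverse, by at least 1 bp. Both peaks were 1000 bp or wider, and the shHMGA1 width was between 0.5 and 2 times the control width. Chromosome 4 from 154000000 to 189000000 and chromosome 9 from 2000000 to 21000000 (hg19), where peaks of both lists are crowded, were left out. The rule kept 11402 sites, which is 16.1% of the 70924 one-to-one pairs outside those segments and part of 83581 one-to-one pairs in all. The lists held 112610 shHMGA1 peaks and 127153 control peaks.

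The assay was ATAC-seq: Tn5 transposase cuts DNA where it is open and tags the cut ends for sequencing. The cells carry the label DAMI, a leukaemia line (disease state MPN/AML in the labels), whose identity was not checked here. The labels give 3 samples infected with a shHMGA1 lentivirus, which silences HMGA1, and 3 infected with a control lentivirus; the strength of the silencing is not given in the sources used here. The data were 1 deposited peak list for shHMGA1 cells and 1 for control cells, with no values per sample. The series also names a SET-2 cell line, and whether its libraries entered the lists is not known. Without replicates no difference could be tested, and all values are descriptions of these lists.

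As background, the HMGA1 protein shapes chromatin: its AT-hooks grip the minor groove of AT-rich DNA, it bends DNA and it competes with linker histone H1. It is abundant in embryonic and many cancer cells. Wide accessible regions are, in general, active promoters, often at CpG islands, and clusters of enhancers bound by several factors, while narrow weak peaks are more often single elements. A wide region can therefore lose part of its accessibility while it is still called as a peak, a change that a count of lost and gained peaks does not show. Genes and base composition at the sites were not annotated here, because no hg19 genome or annotation was at hand, so sites are given by position and chromosome band.

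Measured as deposited, each peak has a width in bp, a summit value (the −log10 p at its highest point) and an area, which is the area under the significance curve across the peak. Area divided by width gives an area per base, called height here. It is not on the scale of the summit, as its median ratio to the summit value was 0.29 in shHMGA1 and 0.30 in control. Whether the area is counted from 0 or from a calling threshold is not given in the sources used here. The broad shared sites were among the strongest peaks of both lists. Of them, 60.6% were in the most significant decile of the shHMGA1 list and 64.9% in that of the control list, while 389 sites lay below the median summit value in shHMGA1 and 307 in control. They made up 10.1% of shHMGA1 peaks and 8.97% of control peaks, but held 39.5% of the summed area in shHMGA1 and 37.6% in control. They covered 18.5 Mb in shHMGA1 cells and 18.7 Mb in control cells. Area and covered bases grow with width, and the rule asks for wide peaks, so these amounts follow partly from the rule.

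Sites in shHMGA1 cells were nearly as wide as in control cells and slightly lower. The rule bounds the width ratio and leaves out pairs in which only 1 peak reached 1000 bp. The likeness in width is therefore partly fixed by the rule. Median width was 1448 bp in shHMGA1 (quartiles 1203 and 1824) and 1466 bp in control (1226 and 1845). Median area was 5056 in shHMGA1 (quartiles 3220 and 7717) and 5395 in control (3489 and 8148), and median area per base was 3.46 against 3.66. The median summit −log10 p was 11.8 in shHMGA1 and 12.2 in control. Site by site, the median shHMGA1 to control ratio was 0.946 for area (log2 -0.08, 95% interval -0.084 to -0.076), 0.952 for area per base (log2 -0.07, interval -0.08 to -0.07), 0.994 for width (log2 -0.0090, interval -0.012 to -0.0068) and 0.966 for the summit (log2 -0.05). Intervals of medians here are binomial (order statistic) intervals over sites. They treat sites as independent and leave out the variation between cultures.

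The lower values were shared by most sites but not by all of them. Area was lower in shHMGA1 at 7687 sites (67.4%) and higher at 3715. Area per base was lower at 7227 sites (63.4%), the summit at 7786 (68.3%) and the width at 6122 (53.7%), with 60 sites of equal width. Read depth is unknown, and both area and summit are built from significance, which grows with depth. An overall ratio below 1 therefore cannot be told apart from a difference in depth or in how samples were combined. For this reason each log2 ratio was centred on the median of the broad shared sites, and what follows describes how single sites, chromosomes and 5-Mb bins lay around that median. Centring on the median of all one-to-one pairs instead would raise every centred area value by 0.050.

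Around their median the sites kept close together. The log2 area ratio had an interquartile range of 0.26, area per base 0.29, width 0.20 and the summit 0.15. Sites more than 1.5-fold from the median were few. In area, 319 sites (2.80%) were lower in shHMGA1 beyond 1.5-fold and 205 (1.80%) were higher, against 15% lower and 12.3% higher of all 70924 one-to-one pairs, centred on their own median. Centred on the median of all one-to-one pairs, 260 sites were lower and 257 higher, and centred within 10 classes of area 257 and 253, so the excess of lower sites depends on the centring. In area per base 279 sites were lower and 186 higher (2.45% and 1.63%), against 12.1% and 11.4% of all pairs, and centring within area classes gave 233 and 233. In width 138 were lower and 72 higher (1.21% and 0.631%), against 13.1% and 10.3%. The rule itself limits widths and their ratio, so nothing is read from these differences in share.

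**Figure D1:**
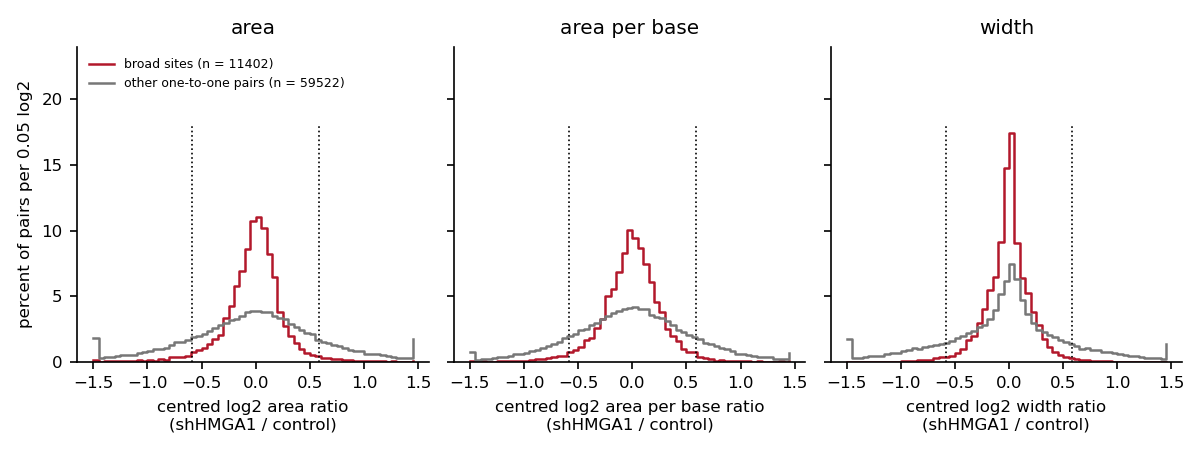
Centred log2 ratios (shHMGA1 over control) of area, area per base and width, as the percent of pairs in steps of 0.05, for the 11402 broad shared sites (red) and the 59522 other one-to-one pairs (grey), each centred on its own median. Dotted lines mark 1.5-fold, and the outermost steps collect all values beyond the plotted range; the broad sites form the narrower peak in each panel, with interquartile ranges of 0.26, 0.29 and 0.20 on the log2 scale.

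The sites beyond 1.5-fold in area can differ in width only within the limits of the rule, so their width and area per base are given as values. Among the 319 lower sites, 182 were also beyond 1.5-fold in area per base and 32 in width, and 109 in neither. Their median area was 1532 in shHMGA1 and 2866 in control, and their median width 1185 bp and 1425 bp. Among the 205 higher sites, 113 were also beyond 1.5-fold in area per base and 13 in width. Their median area was 2566 in shHMGA1 and 1624 in control. Without centring, the summit was lower in shHMGA1 at 312 of the 319 lower sites and higher at 191 of the 205 higher ones. The area is centred here and the summit is not. The median log2 summit ratio was -0.05, so these counts do not compare the directions.

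Width and height differed in opposite ways at most sites. The log2 ratios of width and of area per base had a Spearman rho of -0.39 over the 11402 sites, and at 7226 sites (63.4%) they lay on opposite sides of their medians, the peak being wider and lower or narrower and taller. Area per base contains the width in its denominator, which by itself gives a negative relation. The summit value, which does not contain the width, had a rho of 0.14 with width, 0.54 with area per base and 0.68 with area. With area, rho was 0.63 for area per base and 0.36 for width. Area is area per base times width, so both of these relations are partly built in. The rule bounds the width ratio, and over the 59522 other one-to-one pairs the order was the reverse, at 0.49 for area per base and 0.59 for width. All these values come from the same pair of lists and the correlations are descriptions over sites.

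Edges and summits of the sites were compared next, with the likeness in width partly fixed by the rule. The summits lay a median of 13 bp apart, within 10 bp at 5182 sites (45.4%) and within 50 bp at 8686 (76.2%), and on the same base at 1484. Of the other one-to-one pairs 77.3% had summits within 50 bp, a similar share. A median of 90.7% of the joined width was common to both peaks. The median distance between the left edges was 47 bp and between the right edges 46 bp. The shHMGA1 peak lay inside the control peak at 3380 sites and the control peak inside the shHMGA1 peak at 2663. Counted from the left edge, the summit position had a median of 49.9% of the width in shHMGA1 and 50.2% in control. Left and right are arbitrary here, so such a median does not show that single summits lay near the middle. At 394 sites (3.46%) the summits were more than 500 bp apart. Those sites were wider, with medians of 1663 bp in shHMGA1 and 1644.5 bp in control, and their centred log2 area ratio had a larger interquartile range (0.43) than that of the remaining 11008 sites (0.26), with medians of -0.02 and 0.00012.

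The area of sites went with the spread of their ratios and, to a lesser degree, with how far the median ratio lay below 1. The sites were divided into 10 equal classes by the geometric mean of their areas in both lists, so that neither list alone set the class. In the smallest class (mean area 403 to 2105) the interquartile range of the log2 area ratio was 0.64, in the fifth class (4444 to 5211) it was 0.26, and in the largest class (11338 and more) 0.13. The uncentred median difference in area (shHMGA1 against control) was -11.4% in the smallest class, -5.80% in the fifth and -3.30% in the largest. The share of sites that were lower in shHMGA1 was nearly level, at 64.1% in the smallest class and 69.1% in the largest. Of the sites beyond 1.5-fold in area, 160 of the 319 lower ones and 108 of the 205 higher ones were in the smallest class. The 1141 sites of the largest class held 0 of either. Classes by mean width showed less of this, with interquartile ranges of 0.33 in the narrowest class and 0.19 in the widest.

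**Figure D2:**
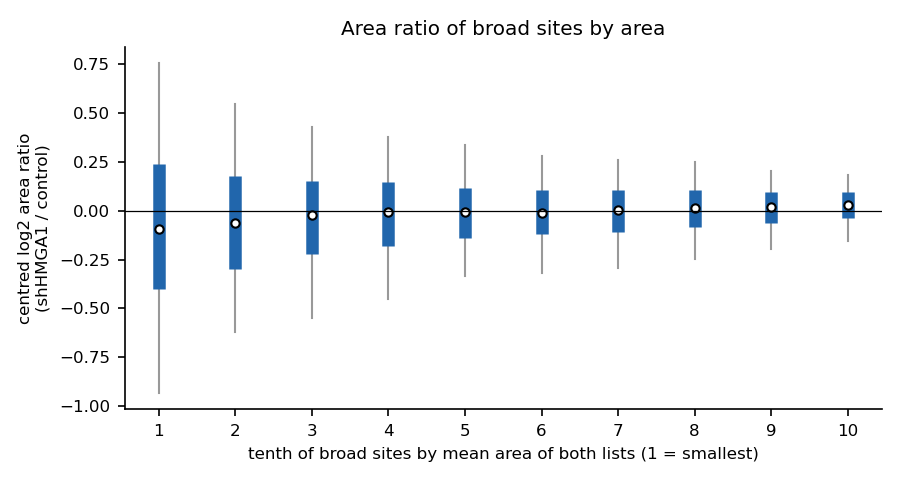
Centred log2 area ratio (shHMGA1 over control) of the 11402 broad shared sites in 10 equal classes of mean area of both lists, from the smallest (1) to the largest (10). Circles are medians, bars the quartiles and lines the 5th to 95th percentiles; the interquartile range is 0.64 in class 1 and 0.13 in class 10, and the median is -0.09 in class 1 and 0.03 in class 10.

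At equal area, broad sites did not have the smaller spread in area. Among pairs with a mean area of 2048 to 2896, the log2 area ratio had an interquartile range of 0.48 over 1085 broad sites and 0.42 over 3268 other one-to-one pairs, most of them narrower. From 4096 to 5793 the ranges were 0.26 over 2472 broad sites and 0.23 over 567 other pairs. The median log2 area ratios there were -0.09 for broad sites and -0.06 for the other pairs. Widths varied less in broad sites, with interquartile ranges of 0.21 against 0.38 from 4096 to 5793, where the rule bounds their ratio. These differences were not tested.

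Close to the width minimum the area ratios were mixed, while near the limits of the width ratio the centred values lay on the side of the width. Area is area per base times width, so pairs with an extreme width ratio tend to that side by construction. The pairs at each limit are few, and nothing is read from them. The first 3 sites inside the width minimum, each with a narrower peak of 1000 bp, had centred log2 area ratios of -0.18, 0.10 and 0.01, and 3 pairs with a narrower peak of 999 bp had 0.10, -0.37 and 0.20. Inside the lower limit of the width ratio, 3 sites with ratios of 0.501 to 0.506 had centred area values of -0.08, -0.46 and -0.61, and the nearest pairs outside, at 0.437 and 0.401, had -0.80 and -1.76. Inside the upper limit, sites with width ratios of 1.93, 1.88 and 1.87 had 0.08, 0.18 and 0.74, and pairs outside at 2.01, 2.04 and 2.12 had 0.01, 0.98 and 0.33. Only 7 pairs with both peaks at 1000 bp or wider failed the width ratio. In another 5069 pairs, 1 peak reached 1000 bp and the other did not, the wider being the shHMGA1 peak in 1935 and the control peak in 3134.

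The sites with the lowest area ratios were small ones. The lowest ratio was at 5q33.2, on chromosome 5, where the peak ran from 154163485 to 154164675 in shHMGA1 and from 154162290 to 154164005 in control. Its area was 551 in shHMGA1 and 2145 in control, with summit values of 3.71 and 6.30, a centred log2 area ratio of -1.88. The next was at 3p26.2 (chromosome 3, control peak 3176639 to 3178063), with areas of 571 in shHMGA1 and 1923 in control. The site at 15q23 (chromosome 15, control peak 70755042 to 70756310) was the largest of the 10 lowest. Its area was 1702 in shHMGA1 and 5700 in control, its width 1214 bp and 1269 bp, and its summit 6.08 and 10.0, so the difference lay in height. At 1q43 (chromosome 1, control peak 243268398 to 243269762) area was 986 in shHMGA1 and 3272 in control. The other 6 lay at 2p24.1, 3p26.1, 1q23.1, 11q22.3, 6q16.1 and 6q22.1, with centred values of -1.64 to -1.51. In all 10 the summit was also lower in shHMGA1, and 9 of the 10 belonged to the smallest area class.

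The highest area ratio was at 3q29, on chromosome 3. There the peak ran from 193047326 to 193049238 in shHMGA1 and from 193047317 to 193048535 in control. Its area was 4755 in shHMGA1 and 1065 in control, and its summit 9.83 and 4.33, a centred log2 area ratio of 2.24. The peak at 2q14.2 (chromosome 2, control peak 121124875 to 121126023) was also taller in shHMGA1, with areas of 3886 in shHMGA1 and 1132 in control and summits of 9.46 and 4.38. At 20q11.21 (chromosome 20, control peak 31044040 to 31045188) the areas were 1022 and 247, and at 2q37.3 (chromosome 2, control peak 242529418 to 242530556) 1698 and 439.8. The other 6 lay at 1p34.1, 12q21.1, 1q31.2, 1q43, 9p21.2 and 1p21.3, with centred values of 1.80 to 1.37. All but the site at 3q29 belonged to the smallest area class. Some control peaks were barely called. The one at 20q11.21 had a summit of 3.06, and the smallest area in either list was 200.0. All 10 were wider in shHMGA1 cells as well as higher. Their control peaks were 1012 to 1254 bp wide, close to the 1000 bp minimum, so the rule left little room for a narrower shHMGA1 peak. Area also grows with width, so nothing is read from this. Among the 10 lowest, the peaks at 2p24.1 (1425 bp against 1296 bp in control) and 3p26.1 (1437 bp against 1285 bp) were wider in shHMGA1. The named sites are extremes of the ratio and were picked by it.

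**Figure D3:**
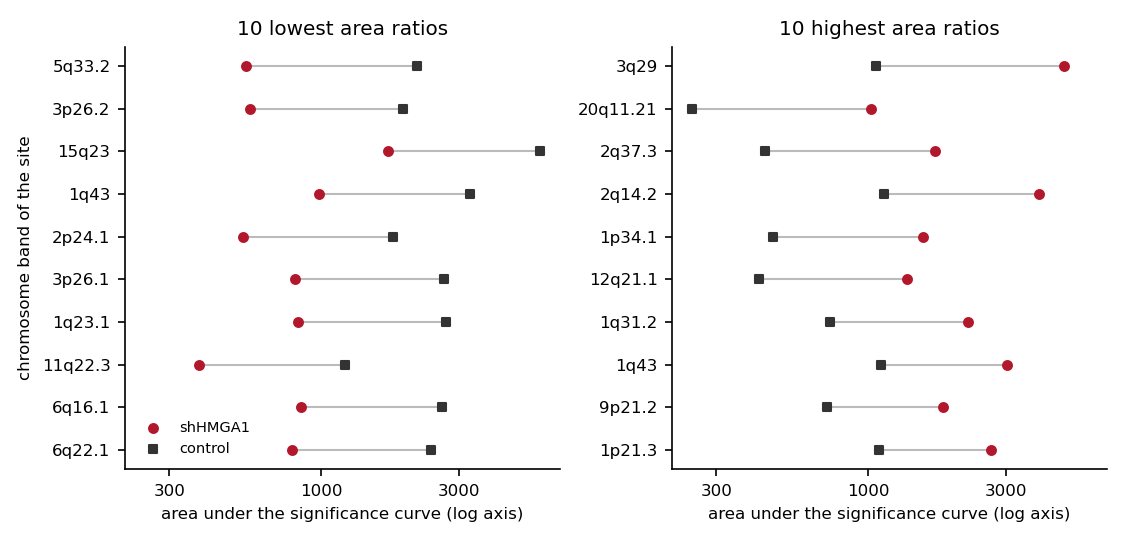
Area under the significance curve (log axis) in the shHMGA1 list (red circles) and the control list (dark squares) for the 10 broad shared sites with the lowest and the 10 with the highest area ratio, labelled by chromosome band. Areas of the lowest sites run from 379 to 1702 in shHMGA1 and from 1215 to 5700 in control, and those of the highest sites from 1022 to 4755 in shHMGA1 and from 247 to 1132 in control.

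Among the largest sites the extremes were much closer to the median. In the largest area class, sites picked after their values were seen gave a lowest centred log2 area ratio of -0.51 at 12q24.31 (chromosome 12, control peak 120728336 to 120731323), with areas of 9934 in shHMGA1 and 14946 in control. Next came 2 sites at 11q24.2, at chromosome 11 from 124938751 to 124941698 and from 126213053 to 126219321 in control. Their areas were 10159 and 14670 in shHMGA1, against 14912 and 21321 in control. The first of these had widths of 2958 bp in shHMGA1 and 2948 bp in control, which are nearly equal, while its area per base was 3.43 in shHMGA1 and 5.06 in control. The highest value of this class was 0.50, at 4p11 beside the centromere of chromosome 4, and a site at 1p34.3 had 0.31, with areas of 16408 in shHMGA1 and 13954.5 in control.

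The 10 sites of largest area were nearly equal in the lists. Of these, 6 lay in bands of centromeres or of variable heterochromatin (2p11.1, 16q11.2, 19q11, 6p11.1, 18q11.1 and 21p11.2), where repeated DNA is dense and short reads are hard to place. The site at 1p36.33 (chromosome 1, 564398 to 570361 in control) lies in a stretch that resembles mitochondrial DNA, and had areas of 257236 in shHMGA1 and 264119 in control. The widest site, at 1q42.13 (chromosome 1, 228744061 to 228784317 in control), in the region of the repeated 5S ribosomal RNA genes, measured 40253 bp in shHMGA1 and 40257 bp in control. Its areas were 259512 and 265795. The centred log2 area ratios of the 10 ran from 0.04 to 0.21, all above the median of the broad shared sites.

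By chromosome, the median area ratio varied less than sites did within a chromosome. The uncentred median was below 0 on 21 of 22 chromosomes, chromosome 22 being the exception at 0.0027. The centred medians spanned 0.17, against a median interquartile range within a chromosome of 0.25. Lowest were chromosome 16 (-0.08, interval -0.10 to -0.05, n = 271), chromosome 20 (-0.08, interval -0.12 to -0.04, n = 196) and chromosome 11 (-0.04, interval -0.06 to -0.02, n = 655). Highest were chromosome 22 (0.08, interval 0.04 to 0.11, n = 88), chromosome 13 (0.04, interval 0.02 to 0.07, n = 355) and chromosome 1 (0.04, interval 0.02 to 0.05, n = 1403). With sites treated as independent, the interval lay below 0 on 6 chromosomes and above 0 on 6 others, and included 0 on 10. Chromosomes 16 and 20 had overlapping intervals, and so did chromosomes 22, 13 and 1. With centring on all one-to-one pairs only 2 chromosomes had a median below 0, so a direction here is relative to the broad shared sites.

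Width and height differed by chromosome in their own ways. On chromosome 16 sites were lower in shHMGA1 in area per base (centred log2 median -0.10) and level in width (0.0032). The gene-rich chromosomes 17 and 19 had wider sites in shHMGA1 (centred width 0.03 and 0.04) with a lower area per base (-0.03 and -0.03) and area ratios of 0.01 and 0.03. Chromosome 22 was the highest in width, at 0.06. On chromosome 21 the area per base was lower (-0.08) and the width higher (0.02). Sites beyond 1.5-fold in area were most frequent there, with 28 lower (8.28%) and 9 higher of 338. Chromosome 11 followed, with 35 lower (5.34%) and 9 higher of 655. Chromosome 9 had the largest share of higher sites, 22 of 554 (3.97%). Over all broad shared sites the shares were 2.80% lower and 1.80% higher, and over all one-to-one pairs 15% and 12.3%. Shares of all pairs by chromosome were not computed, so nothing is read about single chromosomes from these counts. Chromosome 21 also had the smallest sites, with a median mean area of 3947.

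**Figure D4:**
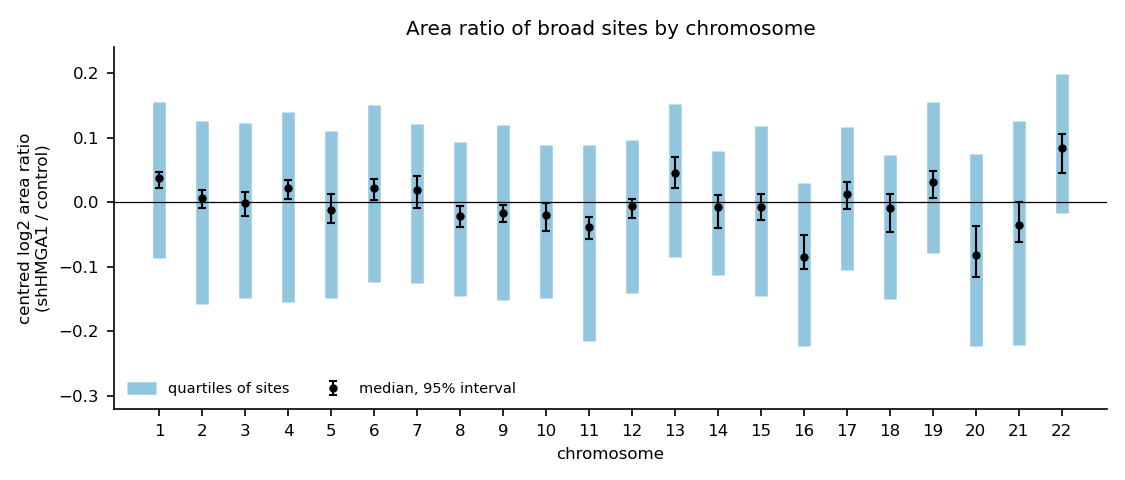
Centred log2 area ratio (shHMGA1 over control) of the broad shared sites by chromosome. Points are medians with 95% binomial intervals over sites and bars are the quartiles of the sites; medians run from -0.08 on chromosome 16 to 0.08 on chromosome 22, within bars that overlap on all 22 chromosomes.

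Along the chromosomes, broad shared sites of the same 5-Mb bin leaned the same way in part of the genome. The sites fell into 554 bins, of which 232 held at least 20 sites, 7553 in all. Bin medians of the centred log2 area ratio had an SD of 0.08, a range of -0.28 to 0.23 and 5th and 95th percentiles of -0.15 and 0.12. Within a bin, the median interquartile range was 0.22. The interval of the bin median lay below 0 in 27 bins, above 0 in 35 and included 0 in 170. Such intervals treat sites as independent and come from 1 list per group, so these counts are descriptions and not tests. Beyond a log2 distance of 0.20 from the median were 5 bins that were lower in shHMGA1 (2.16%) and 1 that was higher (0.431%). Centring on all one-to-one pairs turned this round, to 2 lower and 3 higher bins. Among 549 bins with at least 20 of the other one-to-one pairs, 10.6% were lower and 6.74% higher by this measure, but those pairs are weaker and vary more.

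The lowest bin median was that of chromosome 3 from 1 to 5000000 (3p26.3 to 3p26.1), with -0.28 (interval -0.55 to -0.14) over 22 sites, of which 20 were below the median of all broad shared sites. Median area there was 2888 in shHMGA1 and 4001 in control, and median width 1181.5 bp and 1374.5 bp, so the sites were narrower. On chromosome 11 from 125000001 to 130000000 (11q24.2 to 11q24.3) the median was -0.28 (interval -0.40 to -0.22) over 59 sites, 49 of them below. Their median area was 3976 in shHMGA1 and 5228 in control, and height (-0.14) differed more than width (-0.07). Band 11q24.3 is the band of FLI1 and ETS1, ETS transcription factors of blood cells. Its 40 sites had a median of -0.32 (interval -0.47 to -0.22), with areas of 2929 in shHMGA1 and 4368 in control. The bin before it (120000001 to 125000000) had -0.20 over 33 sites.

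The other low bins were chromosome 6 from 160000001 to 165000000 (6q25.3 to 6q27) and the end of chromosome 4 from 190000001 to 191154276 (4q35.2). The chromosome 6 bin had a median of -0.25 (interval -0.38 to -0.07), with 25 of 27 sites below the overall median. The 4q35.2 bin had -0.22 (interval -0.38 to -0.04), with 33 of 48 sites below, and its sites were small, with a median area of 2564 in shHMGA1 and 2835 in control. It lies near the segment of chromosome 4 that was left out.

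On the other side, the highest bin median was on chromosome 1 from 200000001 to 205000000 (1q32.1), at 0.23 (interval 0.11 to 0.32). Of its 39 sites 29 were above the overall median, and the median area was 4718 in shHMGA1 and 4010 in control. The uncentred median difference was 10.6%. Chromosome 1 from 155000001 to 160000000 (1q22 to 1q23.2) had 0.17, with an interval (-0.03 to 0.28) that included 0. Chromosome 2 from 175000001 to 180000000 (2q31.1 to 2q31.2, the bands that hold the HOXD cluster) had 0.15, with 25 of 30 sites above. Chromosome 19 from 50000001 to 55000000 (19q13.33 to 19q13.42) had 0.15, with 34 of 42 sites above. Chromosome 6 from 100000001 to 105000000 (6q16.2 to 6q16.3) had 0.14 over 20 sites. Centring on all one-to-one pairs adds 0.050 to each of these values, and over all 232 bins it leaves 65 medians below 0, against 121 here.

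Likeness between neighbouring bins was measured by rank correlation. Over 129 neighbouring bins with at least 20 sites in both, the medians had a Spearman rho of 0.44 (Pearson r 0.45), and 0.35 after centring on the chromosome. With only sites at or above the median summit in both lists, rho was -0.05, over 9 neighbouring bins. For area per base rho was 0.23 and for width 0.36. These are descriptions, since all bins share the same libraries.

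The runs of at least 3 neighbouring bins whose medians all lay more than 0.05 on the same side numbered 8, by a rule set after the values were seen. The longest was on chromosome 1 from 15000001 to 45000000 (1p36.21 to 1p34.1), 6 bins with 291 sites and a median of 0.12, with area per base at 0.06 and width at 0.06. On chromosome 11 from 110000001 to 130000000, 4 bins with 161 sites had a median of -0.19. Chromosome 2 had 2 higher runs, from 160000001 to 180000000 (120 sites, 0.10, with width at 0.0090) and from 190000001 to 205000000 (113 sites, 0.10). Chromosome 11 also had a higher run, from 65000001 to 80000000, with 127 sites and a median of 0.09. Lower runs were found at the start of chromosome 3 (88 sites, -0.14), on chromosome 15 from 85000001 to its end (127 sites, -0.08) and on chromosome 1 from 205000001 to 220000000 (90 sites, -0.07). The last began just after the bin with the highest median.

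Bins in which broad shared sites were lower tended to have fewer other peaks in shHMGA1 cells relative to control cells. For each of the 232 bins, the peaks that are not broad shared sites were counted in both lists, a number that the rule does not use. Their shHMGA1 to control ratio and the median area ratio of the broad sites had a Spearman rho of 0.67 (Pearson r 0.67), and 0.66 with both centred on the chromosome. Across 4 equal groups of 58 bins, from the lowest ratio of peak numbers (0.60 to 0.804) to the highest (0.942 to 1.45), the median of the bin medians was -0.08, -0.02, 0.02 and 0.06. The bin medians also had a rho of 0.71 with those of the other one-to-one pairs, and of -0.68 with the control-only percent of unshared peaks. The number of broad sites in a bin had little relation to their ratio (rho 0.14). All points come from the same libraries, and what broad sites and other peaks of a region have in common was not tested.

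**Figure D5:**
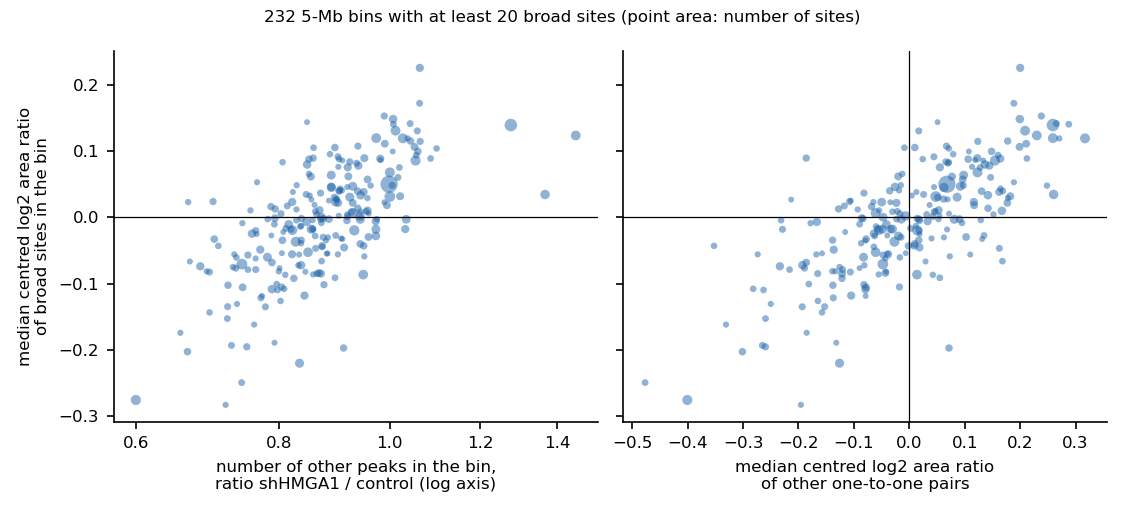
Median centred log2 area ratio of broad shared sites in 232 5-Mb bins with at least 20 such sites, against the shHMGA1 to control ratio of the number of other peaks in the bin (left, log axis) and against the median centred log2 area ratio of other one-to-one pairs (right). Each point is a bin and its area grows with the number of sites; Spearman's rho is 0.67 on the left and 0.71 on the right.

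Some bins with more other peaks in shHMGA1 than in control were picked after their values were seen. On chromosome 1 from 35000001 to 40000000 (1p34.3, the band of the granulocyte colony-stimulating factor receptor gene CSF3R), there were 359 other peaks in shHMGA1 and 247 in control. The 55 broad sites there had a centred area median of 0.12, with width at 0.10 and area per base at -0.01. The next bin (40000001 to 45000000), with 412 and 323 other peaks, had 0.14 over 91 sites. At the end of chromosome 21 from 45000001 to 48129895 (21q22.3), 399 other peaks in shHMGA1 stood against 292 in control, yet the 52 broad sites had a median of 0.03 (interval -0.02 to 0.13). They were wider (0.13) and not taller (-0.05). In the 11q24.2 to 11q24.3 bin, 372 other peaks in shHMGA1 stood against 620 in control.

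Bands of the major histocompatibility complex and of some blood genes were named after their values were seen. In 6p22.1, which holds HLA and histone genes, 37 sites had a median of 0.21 (interval 0.11 to 0.32), with areas of 4182 in shHMGA1 and 3592 in control. In 6p21.33, also part of the complex, 27 sites had 0.14 (interval 0.04 to 0.30), and in 6p21.32, its class II part, 18 sites had 0.06 (interval 0.0032 to 0.16). The 22 sites of 6p22.2, the band of the large histone gene cluster, had -0.02. In 6p21.31, the band of HMGA1, 21 sites had 0.08 (interval -0.04 to 0.19). The bands of the blood cell regulators GATA2 (3q21.3, 14 sites, 0.17, interval -0.13 to 0.43) and RUNX1 (21q22.12, 25 sites, 0.05, interval -0.04 to 0.17), and of ITGA2B, a platelet integrin gene (17q21.31, 36 sites, 0.05, interval -0.03 to 0.12), had intervals that included 0. Bands of other blood cell regulators went both ways. Medians were -0.12 for 1p33 (TAL1, 24 sites, interval -0.23 to -0.0060), -0.18 for 21q22.2 (ERG, 18 sites, interval -0.43 to 0.03) and -0.06 for 11p13 (LMO2, 21 sites). They were 0.07 for 10q24.32 (LDB1, 22 sites, interval 0.02 to 0.14), 0.09 for 12q13.13 (NFE2, 26 sites) and 0.47 for 19p13.13 (KLF1, 2 sites). Those of 2p14 (MEIS1, 19 sites) and 16q24.2 (ZFPM1, 10 sites) were 0.0029 and -0.0086. Values of a band are not values of these genes.

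Giemsa-negative chromosome bands, which are rich in genes, held 6380 of the broad shared sites (56.0%). Their density was 5.23 per Mb there and 5.55, 3.53, 3.05 and 2.49 per Mb from the palest to the darkest positive bands. Of all one-to-one pairs, broad sites made up 18.2% in Giemsa-negative bands, 20.7% in the palest positive bands, 10.3% in the darkest and 18.6% in centromeric bands. By chromosome their density ran from 1.72 per Mb on chromosome 22 to 7.02 on chromosome 21 and 6.43 on chromosome 19. Lengths here include the segments left out. The centred area ratio had no order by stain. It was -0.0022 in Giemsa-negative bands, 0.02 in the palest positive ones (interval 0.0071 to 0.03), -0.01 in the next (interval -0.03 to -0.0038), then 0.0082, and 0.0023 in the darkest bands. In centromeric bands 128 sites had a median of 0.0048 (interval -0.06 to 0.07), and in variable bands 50 sites had -0.09 (interval -0.16 to 0.11).

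Distance to the chromosome end went with the ratio. The 1204 sites within 5 Mb of an end had a centred log2 area median of -0.05 (interval -0.06 to -0.04), the 2486 sites between 5 and 20 Mb -0.04 (interval -0.05 to -0.03), and the 7712 sites further inside 0.02 (interval 0.01 to 0.02). The difference was in height, with area per base at -0.06, -0.03 and 0.02, and hardly in width, at -0.0018, -0.01 and 0.0030. These shifts are small beside the interquartile range of 0.26 between sites. Broad sites lay near each other, with a median distance to the nearest other one of 42403.5 bp, and 22.1% had one within 10 kb.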

How the data were processed

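ATAC-seq peak lists of shHMGA1 and control cells, labelled DAMI, were analysed, 1 list for each group of 3 samples, with the group read from the name of the list. Genrich and hg19 come from the submitters' processing notes. The sources used here do not give its settings, the aligner, the read filters, how samples were joined or whether SET-2 libraries were among them. Per the deposited values, the signal of a peak is an area under its significance curve (at least 200.0), the summit value is an unadjusted −log10 p, and the deposited score is 1000 times the area per base, up to 1000. Start, end and summit offset are other deposited values, in bases. Read depth is unknown.

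Peaks were paired with bedtools (2.31.1) by an overlap of 1 bp. Sites were placed in 5-Mb bins by the middle of the control peak, and in hg19 bands of the R (4.3.3) package circlize (0.4.16). Ratios are log2 of shHMGA1 over control. Named are the 10 lowest, 10 highest and 10 largest sites by area, up to 3 on each side of every limit, and the 5 lowest and 5 highest bins with at least 20 sites. Further bands, runs and large sites were picked after their values were seen. Members and rules were chosen with earlier results of these data known. Pairing and medians were tested on simulated lists. Planned values that need an hg19 genome or annotation were not run. Scripts used pandas (2.3.3) and numpy (2.4.6) under Python (3.11.15), scipy (1.17.1) for intervals and matplotlib (3.10.9) for figures.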

Additional observations from a re-analysis of the deposited data

How the results depend on the processing

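Of 129 values recomputed under 12 alternatives, 73 stayed within their interval or within 1.5 times the main count, 55 moved and 1 changed sign. Counts were compared as numbers and not as shares, so a change in the number of sites or bins alone can move a count. Read depth is unknown, so the overall ratio below 1 cannot be told apart from a difference in depth. No paired analysis was possible because the lists carry no replicate values, and leaving out a replicate could not be done either.

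Counts of sites beyond 1.5-fold are given lower first, then higher. A reciprocal overlap of 50% gave 502 lower in area, and 444 and 278 in width, over 12799 sites. A width of at least 1500 bp (4499 sites) gave log2 medians of -0.074 in area and -0.0043 in width. The counts were 55 and 30 sites in area, 48 and 19 in area per base, and 9 and 10 in width. Chromosome 16 had -0.045 and chromosome 22 had 0.015. Of 28 bins 1 was lower (3.57%) and 0 higher, against 2.16% and 0.431% of 232 bins in the main setting. Without a minimum width (64514 pairs) the medians were -0.12 in area, -0.095 in area per base and -0.021 in width. The counts were 8250 and 7019 in area, 7029 and 6368 in area per base, and 5503 and 4652 in width. Chromosome 22 had 0.12, of 552 bins 30 were lower (5.43%) and 10 higher (1.81%), and rho of neighbouring bins was 0.57. A stricter threshold, with both summits at or above the median summit of the broad shared sites (5220 left) gave -0.064 in area, -0.053 in area per base and -0.0064 in width. The counts were 3 and 1 in area, 15 and 17 in area per base, and 41 and 20 in width. Of 32 bins 0 were then lower and 0 higher, and rho of neighbouring bins was -0.05 over 9 neighbours. Fewer sites and bins are left by construction.

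With the dense segments kept (14284 sites) the medians were -0.090 in area and -0.081 in area per base. The counts were 567 and 332 in area, 461 and 292 in area per base, and 114 higher in width. Centring on all one-to-one pairs gave -0.035 on chromosome 16, 0.13 on chromosome 22, and 2 lower and 3 higher bins. With 10-Mb bins 2 of 235 were lower (0.851%). With at least 10 sites per bin 11 of 453 were lower (2.43%) and 5 higher (1.10%). With at least 40 sites 2 of 43 were lower (4.65%) and 0 higher. Leaving out 178 sites in centromeric, variable and stalk bands, an alternative chosen after seeing the data, moved no value beyond its interval or 1.5 times, nor did dropping the limit on the width ratio or centring within area classes. The cause of the other shifts was not tested.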

Other observations

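Broad one-to-one pairs outside the rule were lower in shHMGA1 cells too. In the chromosome 4 segment 1535 pairs met the width rule, with a median log2 area ratio of -0.17 (interval -0.20 to -0.15), and in the chromosome 9 segment 1347 pairs had -0.15 (interval -0.16 to -0.13). These pairs were small, with median areas of 1896 in shHMGA1 and 2147 in control on chromosome 4, and 2324 and 2633 on chromosome 9. Their interquartile ranges were 0.46 and 0.40. In the smallest 2 area classes of the broad shared sites, medians were -0.17 and -0.14. On chromosome X, 143 pairs had -0.13 (interval -0.17 to -0.10), with median areas of 4362 in shHMGA1 and 4722 in control.

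Some broad peaks lacked a partner. Outside the segments, 167 of 15881 shHMGA1 peaks and 291 of 17424 control peaks of at least 1000 bp overlapped no peak of the other list. Their median area was 640 in shHMGA1 and 705 in control, against 4377 and 4307 for all such broad peaks.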
